A study of Mus musculus with 10 samples.

Results

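Voltage-gated sodium and calcium channels were followed in the mouse brain after middle cerebral artery occlusion (MCAO), the blocking of a main brain artery that is used as a model of stroke. The genes were chosen by symbol: every gene named Scn with a number and a or b, except Scn4b, and every gene named Cacna, Cacnb or Cacng. This gave 34 genes of the 18193 measured, 10 for sodium channels and 24 for calcium channels. Where a gene had several probe sets, the one with the highest mean value was read. The values are log2 RMA expression values, so a difference of 1 is a 2-fold change.

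Tissue was the operated hemisphere of male mice, taken 24 h after surgery, and its total RNA was hybridised to Affymetrix arrays. The arrays fall into 4 groups: Hsp72Tg mice after MCAO (n = 3), Hsp72Tg mice after sham surgery (n = 2), WT mice after MCAO (n = 3) and WT mice after sham surgery (n = 2). Hsp72Tg mice overexpress Hsp72, the inducible heat shock protein, and the series set out to follow its effect on astrocytes after stroke. The labels give neither the promoter nor the species of the transgene, nor the age or strain of the mice. One array stands for 1 labelled sample, and p-values measure the spread between these samples.

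Both channel families share a plan. A large pore-forming alpha subunit senses membrane voltage and opens for sodium or calcium ions, and smaller auxiliary subunits set how many channels reach the membrane and how they gate. In neurons the sodium channels carry the action potential, while calcium channels turn electrical activity into transmitter release, gene expression and, in ischemia, calcium overload.

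Arrays were first compared over all genes by principal components, the first of which took up 50.3% of the variance. Hsp72Tg MCAO 1 scored -12.9 there, the other MCAO arrays 11.7 to 32.3 and the sham arrays -23.7 to -20.7. Its mean of 10 reactive astrocyte markers was 9.03, against 10.13 to 10.57 in the other MCAO arrays and 7.61 to 7.77 in the sham arrays. WT sham 1 carried a cerebellar signal, with a mean of 9.53 for 8 cerebellar markers, against 7.09 to 7.44 elsewhere. The main channel results are therefore given with and without Hsp72Tg MCAO 1. Only some are given without WT sham 1, since that leaves 1 array in the WT sham group. Hspa1b, a gene of Hsp72, read 9.12 and 9.15 in Hsp72Tg sham, against 9.38 and 9.48 in WT sham, a difference of -0.29 (SE 0.51) against the direction of the genotype labels. After MCAO it read 12.05, 13.96 and 13.09 in Hsp72Tg, against 11.85, 12.84 and 12.73 in WT, a difference of 0.56 (SE 0.41) in their direction, and the groups overlapped. A transgene that the probe set does not match would not show. General neuronal markers were bright in every array, with list means of 12.07 to 12.48.

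The 34 channel genes were measured at very different brightness. The 7 genes Scn9a, Scn10a, Scn11a, Cacna1s, Cacna1f, Cacng1 and Cacng6 had means at or under 5.70, the lower quartile of all gene means. Scn9a, Scn10a and Scn11a are known for sensory neurons, Cacna1s, Cacng1 and Cacng6 for skeletal muscle and Cacna1f for the retina. Of 8 skeletal muscle markers 5 had means at or under that quartile, while Acta1, Ckm and Tnni2 lay above it, and the list means were 5.68 to 5.85 over the arrays. The other 27 genes lay above that quartile. In all 84 probe sets covered the 34 genes, and 26 genes had more than 1 probe set.

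**Figure D1:**
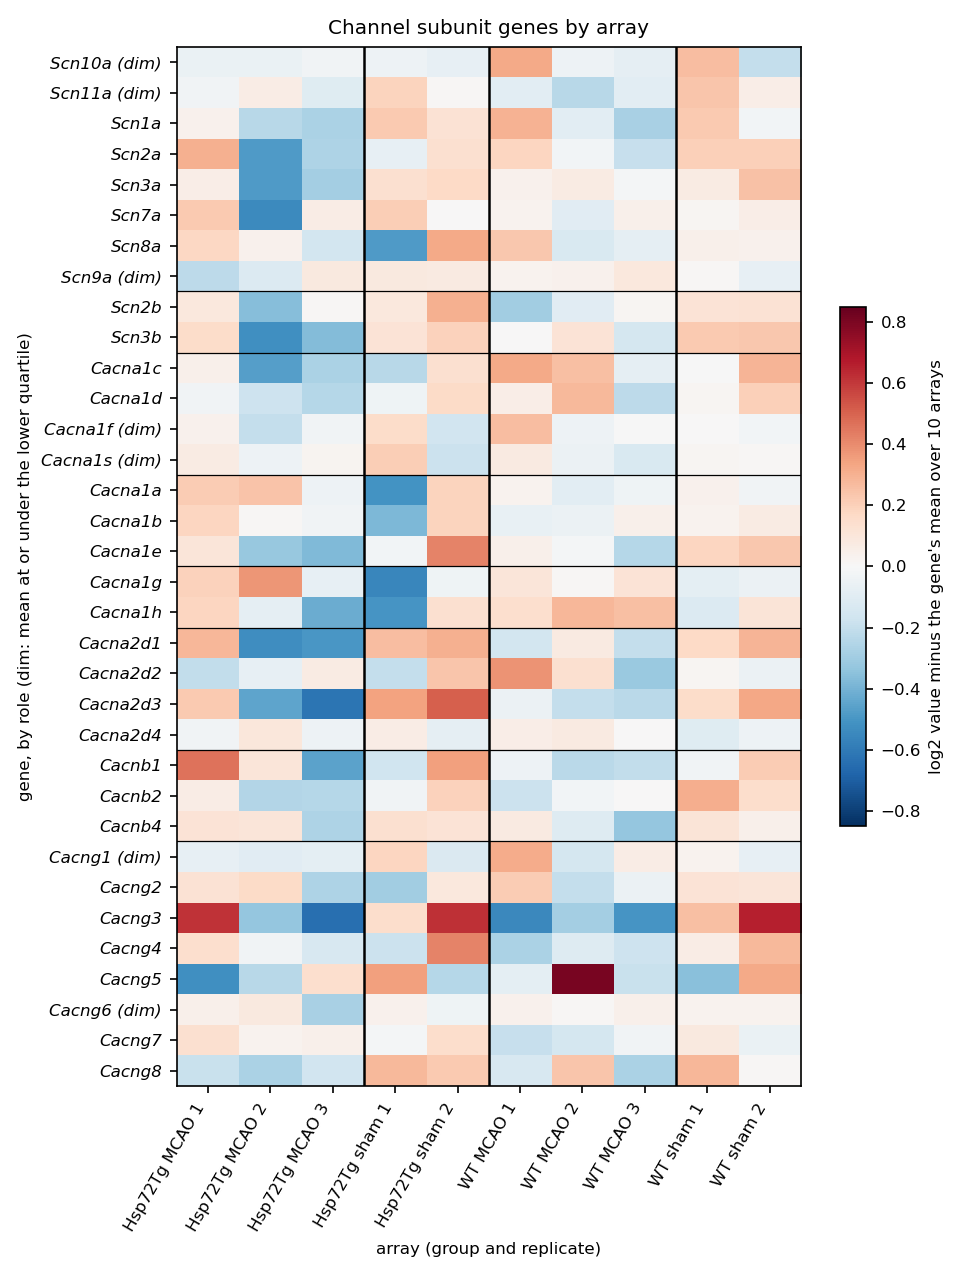
Heat map of the 34 channel genes (rows, grouped by role) in the 10 arrays (columns). Colour gives the log2 value minus the gene's mean over 10 arrays, and dim marks genes with a mean at or under 5.70. Cacng3 and Cacna2d3 lie below their means in 5 of 6 MCAO arrays but not in Hsp72Tg MCAO 1, and several alpha1 genes are low in Hsp72Tg sham 1.

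Promoters are shown for Cacna2d3 and Cacna2d1, the alpha2delta genes among the 3 members with the most negative changes after MCAO. They come from RefSeq on GRCm38.p6 and run from 250 bases before to 50 bases after the start used in RefSeq's promoter table, 5′ to 3′ on the gene's strand. For both genes that start lies inside the outer bounds of the gene, and so does the whole window. Cacna2d3 (chr14:28904943-29722775) and Cacna2d1 (chr5:15934264-16374511) encode extracellular alpha2delta subunits that help calcium channels reach the membrane. The Cacna2d3 window is chr14:29721815-29722114 on the minus strand and that of Cacna2d1 is chr5:15934441-15934740 on the plus strand. Capitals mark the E-box CAGCTG and the GC box GGGCGG, each searched on both strands.
Cacna2d3: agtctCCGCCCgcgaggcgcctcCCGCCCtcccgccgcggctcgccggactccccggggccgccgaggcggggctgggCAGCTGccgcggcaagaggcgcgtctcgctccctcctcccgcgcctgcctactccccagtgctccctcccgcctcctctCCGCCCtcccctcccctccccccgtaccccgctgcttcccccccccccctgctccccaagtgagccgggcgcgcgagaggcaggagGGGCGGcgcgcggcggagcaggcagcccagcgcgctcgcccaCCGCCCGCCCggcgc
Cacna2d1: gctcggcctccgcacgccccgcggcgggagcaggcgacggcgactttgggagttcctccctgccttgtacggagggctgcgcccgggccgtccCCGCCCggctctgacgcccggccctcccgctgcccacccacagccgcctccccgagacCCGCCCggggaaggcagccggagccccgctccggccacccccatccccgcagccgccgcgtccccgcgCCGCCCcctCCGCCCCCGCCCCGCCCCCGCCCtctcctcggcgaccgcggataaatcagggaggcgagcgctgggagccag
Both windows are rich in G and C, with 81.3% in Cacna2d3 and 80% in Cacna2d1, against a median of 52.7% over all promoter windows. Cacna2d3 held 1 E-box and 6 GC boxes, and Cacna2d1 held 0 and 7.

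Over all channel genes, 26 of 34 matched an entry in the promoter table, with 36 windows. The E-box CAGCTG was in 13 of 36 windows (36.1%), against 16.3% of all 32851 promoter windows. The GC box was in 14 (38.9%), against 35.7%. The cAMP response element TGACGTCA was in 0, against 1.79%, and TTCAGCACC, the left part of the RE1 element, in 0, against 0.371%. The AP-1 motif TGANTCA was in 1 window, that of Cacng5 (2.78%), against 7.81%. No motif searched contains another, and a match in a window is a description of its letters alone.

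Most sodium and calcium channel genes had slightly lower values after MCAO than after sham surgery, but 0 of 34 passed the test in limma over both genotypes. The threshold was a Benjamini-Hochberg adjusted p under 0.05 over 18193 genes. At that threshold 1.46% of all genes passed. At an unadjusted p under 0.05 there were 11 channel genes (32.4%), against 19.1% of all genes. Of these 10 were lower (29.4%), against 10.8% of all genes, and 1 was higher, Cacna1g. In value, 26 of 34 were lower after MCAO (76.5%), against 57.5% of all genes. The median change of the 34 genes was -0.10 on the log2 scale, against -0.03 for all genes. There were 0 of 34 genes whose 6 MCAO arrays all lay on one side of the 4 sham arrays, against 6.6% of all genes.

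These counts moved with 1 array, Hsp72Tg MCAO 1. It was set apart because it read nearer to the sham arrays, so leaving it out favours larger MCAO changes. The p-values without it are tied to that choice. Over all genes 2251 passed without it and 266 with it. Within the Hsp72Tg MCAO group, array 1 read above both others for 23 of 34 channel genes (67.6%), against 36.4% of all genes. Without it, 7 of 34 channel genes fell after MCAO over both genotypes (20.6%), against 6.35% of all genes that fell. They were the alpha2delta genes Cacna2d3 and Cacna2d1, the TARP gene Cacng3, the sodium channel genes Scn3b and Scn3a, the R-type pore gene Cacna1e and the beta subunit gene Cacnb2. With that array and WT sham 1 both left out, 5 of these fell (14.7%), against 2.78% of all genes, and Cacna1e and Cacnb2 did not pass. The mean of 8 striatal projection neuron markers moved with this array too. It was 10.13 in Hsp72Tg MCAO 1, 8.96 to 9.46 in the other MCAO arrays and 9.96 to 10.03 in the sham arrays, and its part in the channel values was not tested. In hemisphere RNA, fewer cells of a type and less RNA per cell cannot be told apart.

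**Figure D2:**
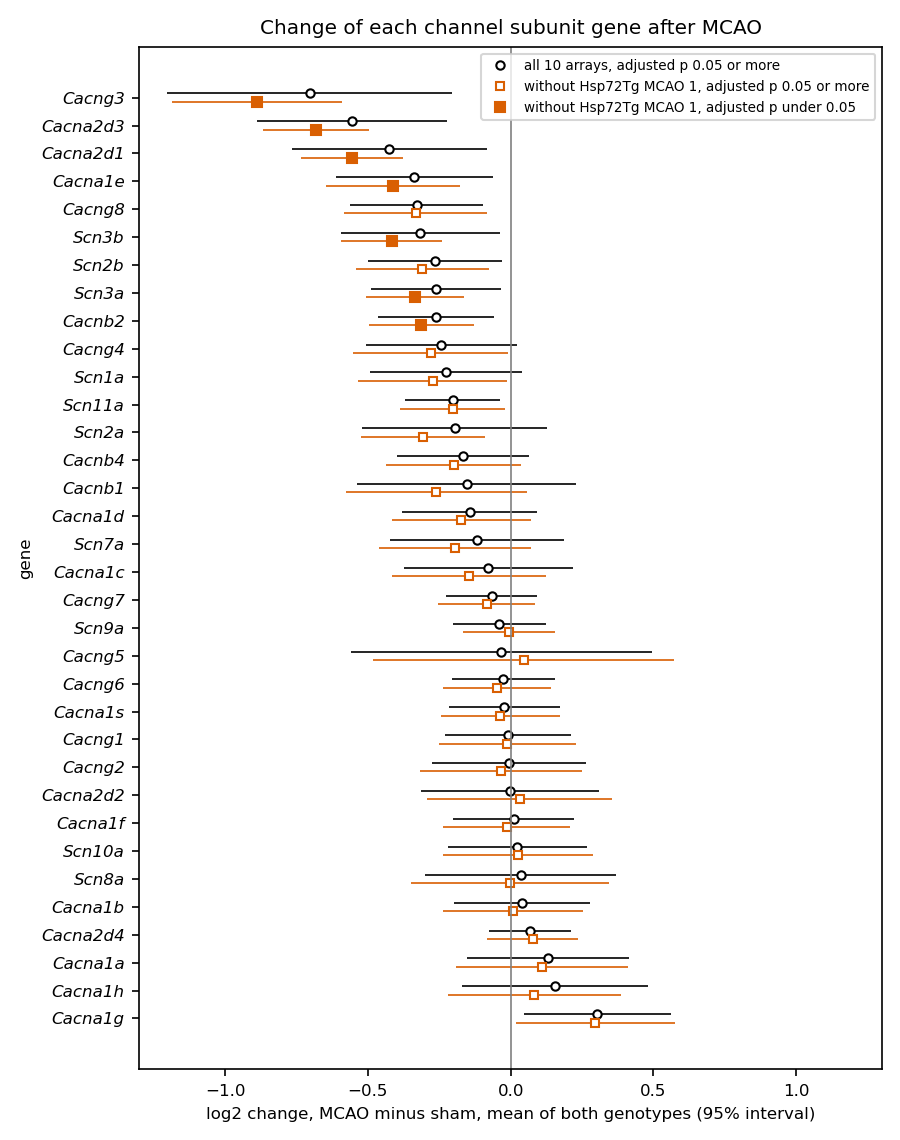
Change of each channel gene after MCAO (MCAO minus sham, mean of both genotypes, log2 scale) with its 95% interval. Circles use all 10 arrays and squares leave out Hsp72Tg MCAO 1. Filled squares are the 7 genes that passed without that array, and 0 genes passed with all arrays.

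Among the pore-forming sodium channel subunits, 6 of 8 were lower in value and the median was -0.16. Scn3a (chr2:65457118-65567591), a channel best known from the developing brain, read 8.97, 8.43 and 8.63 in Hsp72Tg MCAO against 9.05 and 9.08 in Hsp72Tg sham, and 8.95, 8.99 and 8.90 in WT MCAO against 8.98 and 9.17 in WT sham. The values of 2 Hsp72Tg MCAO arrays lay below all others, while the WT MCAO arrays overlapped the WT sham arrays. The change was -0.26 (SE 0.10, adjusted p = 0.202). Without Hsp72Tg MCAO 1, Scn3a fell by 0.33 (SE 0.08, adjusted p = 0.0208).

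Scn1a, which serves fast-spiking inhibitory neurons above all, read 10.42, 10.15 and 10.12 in the Hsp72Tg MCAO arrays, 10.61 and 10.51 in Hsp72Tg sham, 10.68, 10.29 and 10.11 in WT MCAO and 10.61 and 10.36 in WT sham. Its Hsp72Tg groups did not overlap, whereas WT MCAO 1 was the highest of all 10 arrays. The change was -0.23 (SE 0.12, adjusted p = 0.335). The 3 probe sets of Scn1a ran from -0.23 to 0.04, with 2 lower and 1 higher. Scn2a and Scn8a, the main channels of excitatory axons, had changes of -0.20 (SE 0.14) and 0.04 (SE 0.15). The 4 probe sets of Scn2a ran from -0.28 to -0.02. The 5 of Scn8a ran from -0.20 to 0.04, with 4 lower and 1 higher. Scn8a ranged from 10.86 in Hsp72Tg sham 1 to 11.66 in Hsp72Tg sham 2, wider than the span of all 6 MCAO arrays, 11.19 to 11.57. Scn7a, a sodium-sensing relative of the voltage-gated channels, had a change of -0.12 (SE 0.14) and was lowest in Hsp72Tg MCAO 2 at 5.43, with 5.88 to 6.19 elsewhere. The 3 dim sensory genes Scn9a, Scn10a and Scn11a stood at -0.04, 0.02 and -0.20.

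Scn11a was the dim gene with the smallest unadjusted p. It read 5.35, 5.44 and 5.27 in Hsp72Tg MCAO against 5.57 and 5.39 in Hsp72Tg sham, and 5.29, 5.14 and 5.29 in WT MCAO against 5.61 and 5.43 in WT sham. All 3 WT MCAO values lay below both WT sham values, and the Hsp72Tg groups overlapped. No array read it above its own lower quartile of genes, so how large the change of -0.20 (SE 0.07, adjusted p = 0.182) truly is stays uncertain.

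Both sodium channel beta subunits, which tether the pore to adhesion molecules and the cytoskeleton, were lower in value. Scn3b (chr9:40269216-40291618) read 11.28, 10.61 and 10.76 in the Hsp72Tg MCAO arrays, 11.24 and 11.32 in Hsp72Tg sham, 11.13, 11.24 and 10.98 in WT MCAO and 11.35 and 11.35 in WT sham. Hsp72Tg MCAO 2 and 3 were the lowest arrays, and Hsp72Tg MCAO 1 lay inside the range of the Hsp72Tg sham arrays. The change was -0.32 (SE 0.12, adjusted p = 0.207), and without Hsp72Tg MCAO 1 Scn3b fell by 0.42 (SE 0.08, adjusted p = 0.00901). Its other probe set had a change of -0.56.

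Scn2b read 11.41, 10.96 and 11.34 in Hsp72Tg MCAO against 11.41 and 11.63 in Hsp72Tg sham, and 11.03, 11.23 and 11.34 in WT MCAO against 11.44 and 11.45 in WT sham. The WT groups did not overlap, and in Hsp72Tg 1 MCAO value lay just above the lower sham value. The change was -0.27 (SE 0.11, adjusted p = 0.211). Its other bright probe set had a change of -0.16, and a dim one with a mean of 5.48 had 0.15.

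The pore-forming calcium channel genes did not share a direction, with 4 of 9 lower in value and a median of 0.01. Of the P/Q-, N- and R-type channels, which trigger transmitter release, Cacna1e (R-type, chr1:154390806-154884785) had the largest change. It read 10.78, 10.35 and 10.30 in the Hsp72Tg MCAO arrays, 10.65 and 11.10 in Hsp72Tg sham, 10.72, 10.66 and 10.44 in WT MCAO and 10.86 and 10.90 in WT sham. WT MCAO arrays were all below WT sham arrays, and Hsp72Tg sham 1 lay among the Hsp72Tg MCAO arrays. The change was -0.34 (SE 0.12, adjusted p = 0.177), and without Hsp72Tg MCAO 1 Cacna1e fell by 0.41 (SE 0.10, adjusted p = 0.0321).

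Cacna1a, the P/Q-type pore, read 8.45, 8.48 and 8.19 in Hsp72Tg MCAO against 7.73 and 8.43 in Hsp72Tg sham, and 8.26, 8.15 and 8.20 in WT MCAO against 8.27 and 8.21 in WT sham. The value of Hsp72Tg sham 1 stood apart, and the other 9 lay within 8.15 to 8.48. The change was 0.13 (SE 0.13, adjusted p = 0.624) and turned to -0.05 without that array. Its 4 probe sets ran from -0.29 to 0.13, and their mean had a change of -0.03. Cacna1b, the N-type pore, had a change of 0.04 (SE 0.11) and was likewise lowest in Hsp72Tg sham 1, at 10.48, with 10.80 to 11.05 elsewhere.

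L-type channels couple activity to gene expression. Cacna1d read 8.60, 8.45 and 8.38 in the Hsp72Tg MCAO arrays, 8.59 and 8.79 in Hsp72Tg sham, 8.68, 8.90 and 8.41 in WT MCAO and 8.64 and 8.83 in WT sham. The groups overlapped in both genotypes, with a change of -0.14 (SE 0.10, adjusted p = 0.493). Cacna1c, the pore of most L-type channels in brain, read 8.72, 8.21 and 8.41 in Hsp72Tg MCAO against 8.44 and 8.82 in Hsp72Tg sham, and 9.0, 8.93 and 8.60 in WT MCAO against 8.67 and 8.96 in WT sham. Its WT groups overlapped almost fully. The change was -0.08 (SE 0.13, adjusted p = 0.789), and its sign turned to 0.01 without Hsp72Tg sham 2. Cacna1f and Cacna1s, both dim, stood at 0.01 and -0.02.

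The T-type pores open at low voltage and drive burst firing in thalamus. They were the only role in which all measured genes, here Cacna1g and Cacna1h, were higher in value. Cacna1i, also a T-type pore gene, was not among the genes measured. Cacna1g (chr11:94408391-94474400) read 9.47, 9.65 and 9.20 in the Hsp72Tg MCAO arrays, 8.72 and 9.24 in Hsp72Tg sham, 9.38, 9.29 and 9.39 in WT MCAO and 9.19 and 9.22 in WT sham. In WT the MCAO arrays were all above the sham arrays by a small margin, and in Hsp72Tg the low value of sham 1 widened the difference. The change was 0.30 (SE 0.12, adjusted p = 0.194). Without Hsp72Tg sham 1 it was 0.18, and 0 channel genes were then higher at an unadjusted p under 0.05. Thalamic marker means were 9.44, 9.47 and 9.64 in WT MCAO, all above the 9.34 and 9.36 of WT sham. In Hsp72Tg MCAO they were 9.29, 9.22 and 9.29, against 9.25 and 9.49 in Hsp72Tg sham. Their part in the T-type values was not tested. Cacna1h read 9.48, 9.22 and 8.88 in Hsp72Tg MCAO against 8.80 and 9.43 in Hsp72Tg sham, and 9.44, 9.58 and 9.55 in WT MCAO against 9.18 and 9.41 in WT sham, and its change of 0.16 (SE 0.15, adjusted p = 0.607) turned to -0.004 without Hsp72Tg sham 1.

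**Figure D3:**
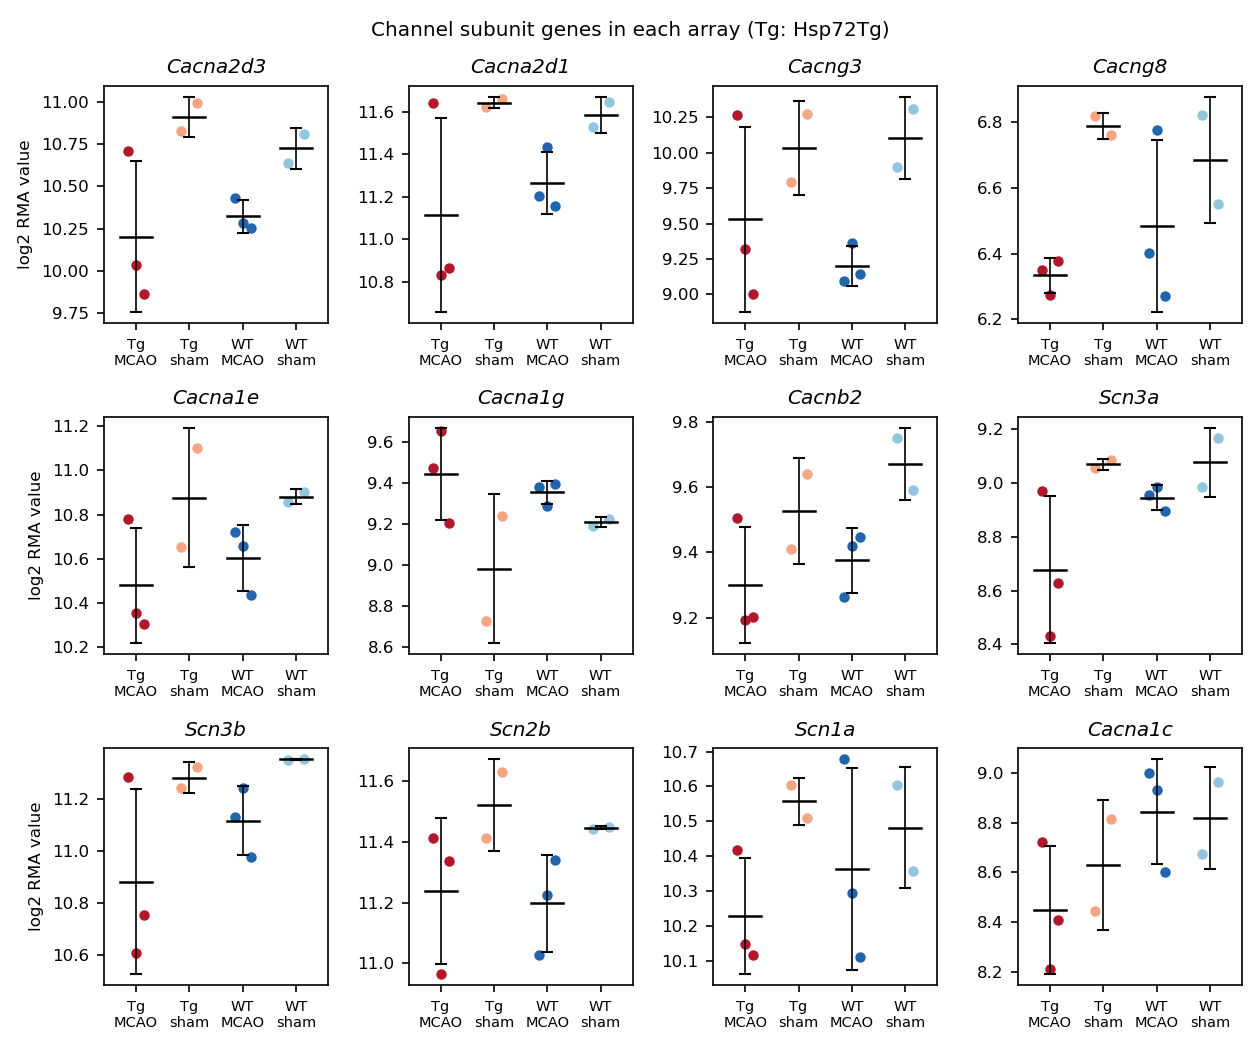
Log2 RMA values of 12 channel genes in the 10 arrays, by group (Hsp72Tg MCAO, Hsp72Tg sham, WT MCAO, WT sham). Points are arrays, horizontal lines group means and bars SD (n = 3 for MCAO, n = 2 for sham). In Cacna2d3, Cacna2d1, Cacng3, Scn3a and Scn3b, Hsp72Tg MCAO 1 is the highest point of its group.

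Auxiliary subunits of both families gave most of the lower values, with 16 of 17 lower over both genotypes, against 57.5% of all genes. Their median was -0.17, against -0.03 for all genes. The 16 include values near 0, such as Cacna2d2 at -0.003, Cacng2 at -0.006 and Cacng1 at -0.01. With all arrays 0 passed in limma, and 7 had an unadjusted p under 0.05, all lower (41.2%), against 10.8% of all genes. Among the alpha2delta genes 3 of 4 were lower, and Cacna2d3 had the smallest p of all 34 channel genes. It read 10.71, 10.04 and 9.86 in the Hsp72Tg MCAO arrays, 10.83 and 11.0 in Hsp72Tg sham, 10.43, 10.28 and 10.25 in WT MCAO and 10.64 and 10.81 in WT sham. Every MCAO value was below every sham value of the same genotype, and the highest MCAO value, Hsp72Tg MCAO 1, lay above the lowest WT sham value. The change was -0.56 (SE 0.15, adjusted p = 0.092), which puts MCAO at 68.0% of sham on the linear scale. Without Hsp72Tg MCAO 1, Cacna2d3 fell by 0.68 (SE 0.08, adjusted p = 0.000923), and without WT sham 1 as well it fell by 0.73 (adjusted p = 0.00387).

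Cacna2d1, the binding site of gabapentin, read 11.64, 10.83 and 10.87 in Hsp72Tg MCAO against 11.62 and 11.66 in Hsp72Tg sham, and 11.20, 11.43 and 11.16 in WT MCAO against 11.53 and 11.65 in WT sham. Hsp72Tg MCAO 1 read as high as the sham arrays, and the other 5 MCAO arrays were below all 4. The change was -0.42 (SE 0.15, adjusted p = 0.172), or 74.5% of sham. Without that array Cacna2d1 fell by 0.56 (SE 0.08, adjusted p = 0.00209). Over all 10 arrays, its 5 probe sets had changes of -0.85 to -0.10. Cacna2d2 and Cacna2d4 had changes of -0.003 and 0.07.

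All 3 measured beta subunit genes, whose proteins bind the pore inside the cell and carry it to the membrane, were lower in value. Cacnb2 read 9.51, 9.19 and 9.20 in the Hsp72Tg MCAO arrays, 9.41 and 9.64 in Hsp72Tg sham, 9.26, 9.42 and 9.45 in WT MCAO and 9.75 and 9.59 in WT sham. WT MCAO arrays lay below WT sham arrays, and in Hsp72Tg the groups overlapped. The change was -0.26 (SE 0.09, adjusted p = 0.162), and without Hsp72Tg MCAO 1 Cacnb2 fell by 0.31 (SE 0.08, adjusted p = 0.0363). Cacnb4, the partner of P/Q-type channels in cerebellum, read 11.65, 11.63 and 11.26 in Hsp72Tg MCAO against 11.66 and 11.64 in Hsp72Tg sham, and 11.60, 11.42 and 11.20 in WT MCAO against 11.63 and 11.57 in WT sham. Its values differed little between groups, with a change of -0.17 (SE 0.10, adjusted p = 0.416) for this probe set and -0.36 and -0.003 for its other 2. Cacnb1 had a change of -0.15 (SE 0.17) and spanned 8.79 to 9.70 within the Hsp72Tg MCAO group.

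The gamma genes hold the skeletal muscle subunits and the TARPs, which bring AMPA receptors to synapses. Of these genes 8 of 8 were lower in value, against 57.5% of all genes, with a median of -0.05, against -0.03. Cacng3 read 10.26, 9.32 and 9.0 in the Hsp72Tg MCAO arrays, 9.80 and 10.27 in Hsp72Tg sham, 9.10, 9.36 and 9.15 in WT MCAO and 9.90 and 10.31 in WT sham. The WT groups stood far apart, and in Hsp72Tg MCAO 1 the gene read as in sham. The change was -0.70 (SE 0.22, adjusted p = 0.133), or 61.4% of sham. Without Hsp72Tg MCAO 1, Cacng3 fell by 0.89 (SE 0.13, adjusted p = 0.00272), the largest change of any channel gene in that fit.

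Cacng8, another TARP gene, read 6.35, 6.27 and 6.38 in Hsp72Tg MCAO against 6.82 and 6.76 in Hsp72Tg sham, and 6.40, 6.78 and 6.27 in WT MCAO against 6.82 and 6.55 in WT sham. The Hsp72Tg groups did not overlap and Hsp72Tg MCAO 1 did not stand apart, whereas the WT groups overlapped. The change was -0.33 (SE 0.10, adjusted p = 0.131), and its second probe set had 0.07. The TARP genes Cacng2, Cacng4, Cacng5 and Cacng7 had changes of -0.006, -0.24, -0.03 and -0.07. Over its probe sets Cacng2 ran from -0.02 to 0.11 and Cacng4 from -0.36 to -0.24. In the same way Cacng5 ran from -0.04 to -0.03 and Cacng7 from -0.36 to -0.07. Cacng5 varied widely within groups, from 8.68 to 9.67 in WT MCAO and from 8.51 to 9.19 in WT sham. The dim muscle genes Cacng1 and Cacng6 stood at -0.01 and -0.03.

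In WT alone, 0 of 34 channel genes passed in limma, against 0.055% of all genes. At an unadjusted p under 0.05 there were 3, Cacng3, Scn11a and Cacnb2, all lower (8.82%). Of all genes 4.52% were lower at that threshold and 10.2% changed either way. In value 23 were lower, against 56.7% of all genes. The MCAO arrays lay below the sham arrays in 11 channel genes (32.4%), against 22.5% of all genes, and above them in 4 (11.8%), against 16.4%. Those 4 were Cacna1g, Cacna1h, Cacna2d4 and Scn9a. Without WT sham 1, the MCAO arrays lay below WT sham 2 in 14 channel genes (41.2%), against 33.3% of all genes. They lay above it in 5 (14.7%), against 25.9%. Cacng3 had a change of -0.90 in WT (SE 0.32, adjusted p = 0.343), and Scn11a one of -0.28 (SE 0.11, adjusted p = 0.388). Cacng3 did pass in limma when the 5 WT arrays were fitted alone (adjusted p = 0.0144), where 1.54% of all genes fell, and in the fit without Hsp72Tg MCAO 1 (adjusted p = 0.0292), where 0.583% fell. Without WT sham 1, 0 channel genes passed in WT and 1 was lower at an unadjusted p under 0.05 (2.94%), against 2.21% of all genes.

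In Hsp72Tg alone, 0 of 34 passed in limma, against 0.022% of all genes. An unadjusted p under 0.05 was reached by 7 channel genes, 6 lower and 1 higher (20.6%), against 12% of all genes. In value 24 were lower, against 55.6% of all genes. Cacna2d3, Cacng8, Scn1a and Scn3a had all MCAO arrays below the sham arrays (11.8%), against 12.8% of all genes. In 0 they lay wholly above, against 9.05%. Cacna2d3 had a change of -0.71 (SE 0.21, adjusted p = 0.335) and Cacng8 one of -0.46 (SE 0.15, adjusted p = 0.343). Without Hsp72Tg MCAO 1, 5 genes fell in Hsp72Tg, namely Cacna2d1, Cacna2d3, Cacng3, Scn3a and Scn3b (14.7%), against 3.11% of all genes that fell. The MCAO arrays then lay below the sham arrays in 14 channel genes (41.2%), against 25.4% of all genes, a count chosen after the values were seen. Over both genotypes that count was 4, namely Cacna2d1, Cacna2d3, Cacng3 and Scn2b (11.8%), against 7.5%.

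Whether the channel genes respond otherwise in Hsp72Tg mice is asked by the MCAO change in Hsp72Tg minus that in WT. In limma 0 of 34 passed, against 0% of all genes, and 0 had an unadjusted p under 0.05, against 1.75%. The median difference was -0.08. Scn9a, a dim sensory channel gene, had the smallest p, with a difference of -0.25 (SE 0.15, interval -0.57 to 0.08). Its values were 4.73, 4.83 and 5.04 in the Hsp72Tg MCAO arrays, 5.03 and 5.03 in Hsp72Tg sham, 4.99, 4.99 and 5.04 in WT MCAO and 4.96 and 4.88 in WT sham, all below the array's lower quartile. Cacna1g had log2 changes of 0.46 in Hsp72Tg and 0.15 in WT, neither of which passed, and a difference of 0.32 (SE 0.23, interval -0.20 to 0.83). Without Hsp72Tg sham 1 its change in Hsp72Tg was 0.21 and the difference 0.06. For Cacng3 the difference was 0.40 with an interval of -0.60 to 1.40, and for Cacna2d3 it was -0.31 with an interval of -0.97 to 0.36. These differences were 0.03 for Cacng3 and -0.56 for Cacna2d3 without Hsp72Tg MCAO 1. The all-array intervals are wide beside the changes themselves. Without Hsp72Tg MCAO 1, 0 passed and 4 had an unadjusted p under 0.05, all more negative in Hsp72Tg (11.8%), against 2.72% of all genes. That array read above both others of its group for 23 of 34 channel genes. Leaving it out changes the Hsp72Tg side alone and so favours more negative differences.

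**Figure D4:**
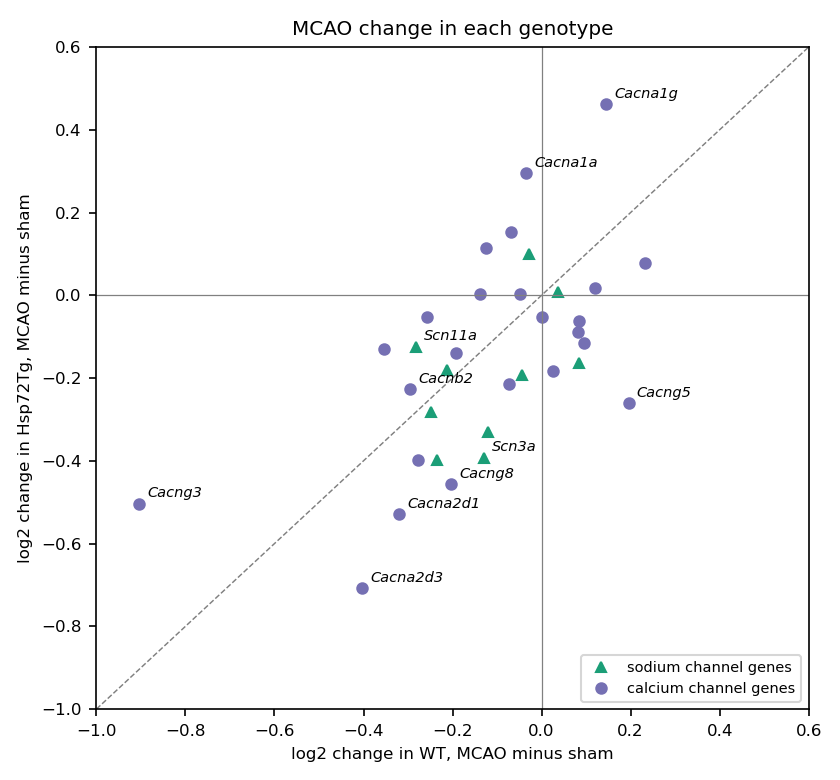
Log2 change after MCAO in Hsp72Tg (vertical axis) and in WT (horizontal axis) for the 34 channel genes. Triangles are sodium and circles calcium channel genes, and the dashed line marks equal changes. Cacna2d3 lies at -0.71 in Hsp72Tg and -0.40 in WT, and Cacng3 at -0.50 in Hsp72Tg and -0.90 in WT, with all 10 arrays. The changes in Hsp72Tg without Hsp72Tg MCAO 1 were -0.96 for Cacna2d3 and -0.87 for Cacng3.

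Genotypes were also compared within each surgery. After MCAO 0 of 34 channel genes passed in limma, against 0% of all genes, and 1 had an unadjusted p under 0.05, against 2.68%. This was Cacna1c, with a mean of 8.45 ± 0.26 in Hsp72Tg MCAO and 8.85 ± 0.21 in WT MCAO (SD, n = 3 each). The difference was -0.40 (SE 0.17, interval -0.77 to -0.02), and the groups overlapped. The other probe set of Cacna1c, with a mean of 8.11, had a difference of 0.14, in the other direction. Cacng7 read 9.65, 9.54 and 9.55 in Hsp72Tg MCAO, against 9.31, 9.36 and 9.48 in WT MCAO, which made it the one channel gene whose Hsp72Tg and WT arrays did not overlap after MCAO, against 7.44% of all genes. Its difference was 0.20 (SE 0.09, interval -0.003 to 0.40). Without Hsp72Tg MCAO 1, 7 channel genes had an unadjusted p under 0.05 and were lower in Hsp72Tg (20.6%), against 5.44% of all genes. Among them Cacna1c stood at -0.54 and Cacna1h at -0.48, and the smallest adjusted p was 0.302. The array left out read above both others of its group for 23 of 34 channel genes. Leaving it out therefore favours lower values in Hsp72Tg, and this count is tied to that choice.

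After sham surgery 0 of 34 passed in limma, against 0% of all genes, and 0 had an unadjusted p under 0.05, against 1.56%. The arrays did not overlap in 6 channel genes, against 27% of all genes. Cacng2, Scn2a and Scn3b were lower in Hsp72Tg sham, and Cacna2d3, Cacnb4 and Scn9a were higher (8.82% of the channel genes each way). Cacna1g averaged 8.98 ± 0.36 in Hsp72Tg sham and 9.21 ± 0.02 in WT sham (SD, n = 2 each). That difference of -0.23 (SE 0.18) turned to 0.03 without Hsp72Tg sham 1. Cacng2, the TARP known as stargazin, read 9.30 and 9.68 in Hsp72Tg sham, against 9.72 and 9.70 in WT sham, a difference of -0.21 (SE 0.19) that was -0.02 without Hsp72Tg sham 1. Array Hsp72Tg sham 1 was the lowest of the 4 sham arrays in 17 of 34 channel genes (50%), against 27.1% of all genes.

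The spread within groups followed the same arrays. The median SD of the channel genes was 0.19 in Hsp72Tg MCAO, 0.16 in Hsp72Tg sham, 0.14 in WT MCAO and 0.07 in WT sham. For all genes these medians were 0.15, 0.12, 0.10 and 0.06 in the same groups. The widest SD was that of Cacng3 in Hsp72Tg MCAO, 0.66. Mean values of the 34 channel genes were 8.70, 8.46 and 8.43 in Hsp72Tg MCAO and 8.60 and 8.76 in Hsp72Tg sham. They were 8.65, 8.61 and 8.51 in WT MCAO and 8.69 and 8.72 in WT sham. General neuronal markers were also highest in array 1 of Hsp72Tg MCAO, with list means of 12.48, 12.16 and 12.07. Of these 12 markers 10 were lower after MCAO over both genotypes, against 57.5% of all genes, with a median of -0.14. Their part in the channel values was not tested.

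Several channel genes are neighbours in the genome. On GRCm38.p6, 17 of 34 lie in 6 clusters with gaps under 1000 kb. The one with the most genes, chr2:65457118-66784910, holds the pore genes Scn3a, Scn2a, Scn1a, Scn9a and Scn7a, with changes after MCAO of -0.26, -0.20, -0.23, -0.04 and -0.12. In the TARP cluster chr7:3332027-3435667, Cacng7, Cacng8 and Cacng6 had -0.07, -0.33 and -0.03. In chr11:107703218-107915055, Cacng1, Cacng4 and Cacng5 had -0.01, -0.24 and -0.03. Cacna2d3 and Cacna1d lie together in chr14:28904943-30491156, with -0.56 and -0.14.

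Genes that work with the channels were read from 2 further lists. Of 24 measured channel partners and inhibitors, 0 passed in limma over both genotypes, against 1.46% of all genes. In value 16 were lower, against 57.5% of all genes, and the median was -0.13, against -0.03. At an unadjusted p under 0.05, 6 were lower (25%), against 10.8% of all genes, and 2 were higher, against 8.3%. Cntn1, an adhesion partner of sodium channel beta subunits, read 12.13, 11.99 and 11.92 in Hsp72Tg MCAO against 12.21 and 12.35 in Hsp72Tg sham, and 12.10, 12.06 and 12.003 in WT MCAO against 12.29 and 12.33 in WT sham, with a change of -0.26 (SE 0.07, adjusted p = 0.0846). Its 6 MCAO values lay below the 4 sham values. Nalcn, the sodium leak channel, read 10.13, 10.01 and 9.94 in the Hsp72Tg MCAO arrays, 10.68 and 10.30 in Hsp72Tg sham, 10.25, 10.26 and 9.98 in WT MCAO and 10.37 and 10.48 in WT sham, with a change of -0.36 (SE 0.10, adjusted p = 0.0913). Again the 6 MCAO values were below the 4 sham values.

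Of 22 measured genes for calcium and sodium handling, 0 passed in limma, against 1.46% of all genes. In value 15 were lower, against 57.5% of all genes, and the median was -0.11, against -0.03. Capn2, a calcium-activated protease, read 9.94, 10.25 and 10.28 in Hsp72Tg MCAO against 9.81 and 9.78 in Hsp72Tg sham, and 10.26, 10.23 and 10.24 in WT MCAO against 9.98 and 9.86 in WT sham, with a change of 0.34 (SE 0.08, adjusted p = 0.0701). Hsp72Tg MCAO 1 was the one MCAO array within the sham range. Ryr3, a calcium release channel of the endoplasmic reticulum, read 9.05, 8.69 and 8.42 in the Hsp72Tg MCAO arrays, 9.20 and 9.54 in Hsp72Tg sham, 8.79, 9.0 and 8.93 in WT MCAO and 9.18 and 9.26 in WT sham, with a change of -0.48 (SE 0.12, adjusted p = 0.082). All MCAO values of Ryr3 were below all sham values, Hsp72Tg MCAO 1 being the highest of them.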

How the data were processed

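The authors deposited log2 values, produced by RMA according to the submitters' processing notes. RMA subtracts background, equalises the distributions of the arrays and combines the probes of each set into 1 value. Its version is not given in the sources used here. Per the labels' protocols, total RNA was labelled with the Affymetrix IVT kit. No detection flags were used, and the number of arrays limits the precision.

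Of 45101 probe sets, 64 were controls, 34945 had 1 gene symbol, 932 had several and 9160 were unlisted in the platform annotation. The probe set with the highest mean stood for its gene, which left 18193 genes. All 34 members matched the RefSeq gene table of GRCm38.p6 by identifier. One promoter sequence is not reported here.

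Tests used limma 3.58.1 in R 4.3.3 (lmFit, contrasts.fit, eBayes), with a mean per group over all 10 arrays, 6 residual degrees of freedom and Benjamini-Hochberg adjustment over all genes, two-sided. Scripts were tested on simulated data. Values in every array are given for the members that pass, the 2 members of each role with the smallest p after MCAO among those above the lower quartile, and the 2 members with the smallest p in each other contrast. Of each further list, the 2 genes with the smallest p are named. Results were recomputed with the replicate number as a block, trend and robust eBayes, arrayWeights, quantile normalization, median centring, the mean over probe sets, a filter on dim genes, only the groups compared, a pair of doubted arrays left out, and each array left out. The members and lists were chosen with earlier results of these data known.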

Additional observations from a re-analysis of the deposited data

How the results depend on the processing

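Over both genotypes the number of channel genes that passed after MCAO was 0 with all arrays, 2 with arrayWeights (Cacna2d3 and Cacng3, both lower, or 5.88%, against 2.3% of all genes lower and 6.13% either way), 5 with WT sham 1 and Hsp72Tg MCAO 1 left out (14.7%, against 2.78% lower and 6.47% either way), and 0 to 7 over fits without 1 array, the 7 being without Hsp72Tg MCAO 1. In WT it was 1 (Cacng3, lower, 2.94%) with arrayWeights, against 2.75% of all genes lower and 7.46% either way. It was also 1 with only the groups compared, against 1.54% lower and 5.25% either way, and 0 to 1 without 1 array, the 1 being without Hsp72Tg MCAO 1, against 0.583% lower and 2.54% either way. In Hsp72Tg it was 5 with both doubted arrays left out (14.7%, against 1.74% lower and 4.29% either way) and 0 to 5 without 1 array. The median change in Hsp72Tg was -0.26 to -0.11 without 1 array, and the median difference of the MCAO changes -0.11 to 0.00961. Without 1 array, the MCAO change over both genotypes was -0.0453 to 0.304 for Cacna1a, -0.00378 to 0.314 for Cacna1h and -0.171 to 0.0149 for Cacna1c, and the sham difference of Cacna1g -0.483 to 0.0297. The mean over the probe sets of Cacna1a gave -0.0311. With the replicate number as a block 0 channel genes passed in every contrast, and the median change over both genotypes was -0.05. Whether the replicate numbers pair the samples is not known. Over 13 same-numbered pairs the deviations from group means were correlated at -0.16 to 0.25, with 2 over 0.1. With 2 arrays in a sham group these deviations are equal and opposite, so the correlations cannot decide it. Over all genes 266 passed after MCAO with all arrays, 19 with the block, 1116 with arrayWeights and 11 to 2251 without 1 array. Of 474 refits of named values, 450 kept direction and side of the threshold, 19 newly passed and 5 changed sign. The causes were not tested. With 2 or 3 arrays a group, changes the size of most intervals given cannot be detected.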
